A study of Mus musculus with 36 samples.

Results

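A set of 9 genes of the insulin and insulin-like growth factor (IGF) pathway were followed across 36 RNA libraries from the anterior cingulate cortex (aCC) of mice. They are the ligands Igf1 and Igf2, the receptors Insr and Igf1r, the receptor substrates Irs1 and Irs2, and the binding proteins Igfbp2, Igfbp4 and Igfbp5, which makes 9 of the 52636 genes in the table. The set was chosen by name, with their levels in these same libraries already known, so the differences between groups given for them are descriptions and carry no test. All 9 passed the filter on low values, which 25572 genes passed.

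Insulin and the IGFs bind the tyrosine kinase receptors encoded by Insr and Igf1r. The activated receptors phosphorylate the substrates Irs1 and Irs2, which recruit PI3 kinase and so lead to AKT, mTOR and the FOXO transcription factors, while a parallel arm runs through RAS and MAP kinases. Igf2 in the adult brain is known to be made largely by the meninges, vessels and choroid plexus, and IGF binding proteins hold the ligands outside the cell.

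The libraries came from female mice of 8 to 11 weeks, one library per mouse, all labelled as strain C57BL/6NTac-Brd1 (given in the study's methods as C57BL/6NTac-Brd1tm1.2Arte/AborgMmucd). WT mice were compared with littermates heterozygous for a targeted deletion of Brd1 (Brd1+/-). Brd1 encodes a scaffold protein of histone acetyltransferase complexes. Mice received saline (vehicle) or the tricyclic antidepressant imipramine (IMN) at 10 mg/kg, and every mouse, controls included, went through behavioral tests that ended with a forced swim before the brain was taken. The WT groups held 8 vehicle and 10 IMN libraries, and the Brd1+/- groups held 9 of each. Values are TPM (StringTie's normalised abundance of transcripts), a level per transcript length and per library total, and they keep no record of depth. The 36 columns summed to between 999727 and 999889 TPM, and no pair of libraries was identical.

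Brd1 was lower in the Brd1+/- libraries. Vehicle libraries had 16.8 ± 2.72 TPM (SD, n = 9) against 26.4 ± 3.03 TPM (SD, n = 8) in WT mice, and IMN libraries had 16.8 ± 2.102 TPM (SD, n = 9) against 23.3 ± 3.43 TPM (SD, n = 10). A pair of libraries stood apart. In WT vehicle replicate 1 the score of 10 oligodendrocyte markers (the mean of log2(TPM + 0.5)) was 7.25 against 3.44 to 5.83 in the other 7 WT vehicle libraries, and that of 7 deep-layer markers was 4.46 against 2.26 to 3.89. Its score of 6 upper-layer markers was 4.57 against 5.46 to 5.95, and that of 14 immediate-early genes was 4.91 against 5.75 to 6.30. In Brd1+/- vehicle replicate 6 the score of 11 choroid plexus markers was 4.31 against at most 0.06 in the other 35 libraries, with a summed level of 3947 TPM against at most 41.1 TPM. Its striatal score was 5.80 against at most 2.94, with a summed level of 1512 TPM against at most 392.9 TPM. Some values of the 9 genes, not all that moved, are also given in the text without these libraries. The plot of differences shows all 9 genes with and without WT vehicle replicate 1.

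Irs2 (ENSMUSG00000038894) is a protein-coding gene at chr8:10984681-11008458 on the minus strand of GRCm38, and Irs1 (ENSMUSG00000055980) lies at chr1:82233101-82291416, also on the minus strand. RefSeq promoters (GRCm38.p6) were found for 8 of the 9 genes, all but Insr. The 250 bases upstream of the RefSeq start are shown for Irs2, the gene with the largest difference between groups relative to its SE, for its paralog Irs1, and for Fosb, an immediate-early gene whose level followed that of Irs2 across libraries. The windows are chr8:11008930-11009179, chr1:82291440-82291689 and chr7:19310046-19310295, all on the minus strand, and are written 5′ to 3′. Capitals mark 3 motifs read on both strands: the GC box GGGCGG, the core TGACG of the cAMP response element, and the E box CACGTG, which overlaps the TGACG match in Irs1.

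Irs2: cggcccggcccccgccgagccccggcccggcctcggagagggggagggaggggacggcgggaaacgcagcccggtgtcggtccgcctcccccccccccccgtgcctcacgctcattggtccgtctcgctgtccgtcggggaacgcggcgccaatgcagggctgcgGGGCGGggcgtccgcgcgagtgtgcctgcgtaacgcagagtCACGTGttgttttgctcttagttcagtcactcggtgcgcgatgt
Irs1: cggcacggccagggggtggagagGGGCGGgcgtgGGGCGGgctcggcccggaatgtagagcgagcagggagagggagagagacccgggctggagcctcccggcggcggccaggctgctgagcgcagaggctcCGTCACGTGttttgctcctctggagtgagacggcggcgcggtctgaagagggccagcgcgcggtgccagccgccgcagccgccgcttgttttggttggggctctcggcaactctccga
Fosb: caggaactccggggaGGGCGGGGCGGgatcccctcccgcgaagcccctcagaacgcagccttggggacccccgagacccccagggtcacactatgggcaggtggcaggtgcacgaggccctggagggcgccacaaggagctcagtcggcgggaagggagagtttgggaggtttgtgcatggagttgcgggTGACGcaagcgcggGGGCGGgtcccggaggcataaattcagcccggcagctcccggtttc

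The GC box was found in 32.7% of 32851 promoter windows of this length, TGACG in 17.8% and the E box in 6.02%. Irs2 held 1 GC box and 1 E box and no TGACG, Irs1 held 2 GC boxes, 1 TGACG and 1 E box, and Fosb held 3 GC boxes, 1 TGACG and no E box. The FOXO motif GTAAACA, present in 3.17% of windows, and the full cAMP response element TGACGTCA, present in 1.55%, were in none of these windows. The E box was added after the sequences had been seen, and a match of letters is a description, not evidence of a bound factor.

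The mean level of Irs2 was lower with IMN than with vehicle in both genotypes. In WT vehicle libraries Irs2 ran from 17.7 to 46.5 TPM with a median of 40.6 TPM (mean 37.7 ± 9.13, SD, n = 8). The lowest of these, replicate 1, was also the lowest of all 36 libraries, and the other 7 WT vehicle libraries lay between 33.8 and 46.5 TPM. In WT IMN libraries it ran from 22.2 to 34.8 TPM with a median of 26.1 TPM (mean 27.5 ± 4.36, SD, n = 10). All 10 WT IMN libraries were below the WT vehicle mean, yet the groups overlapped through replicate 1. Without replicate 1, 8 of the 10 WT IMN libraries were below the lowest WT vehicle library, and the groups still overlapped.

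**Figure D1:**
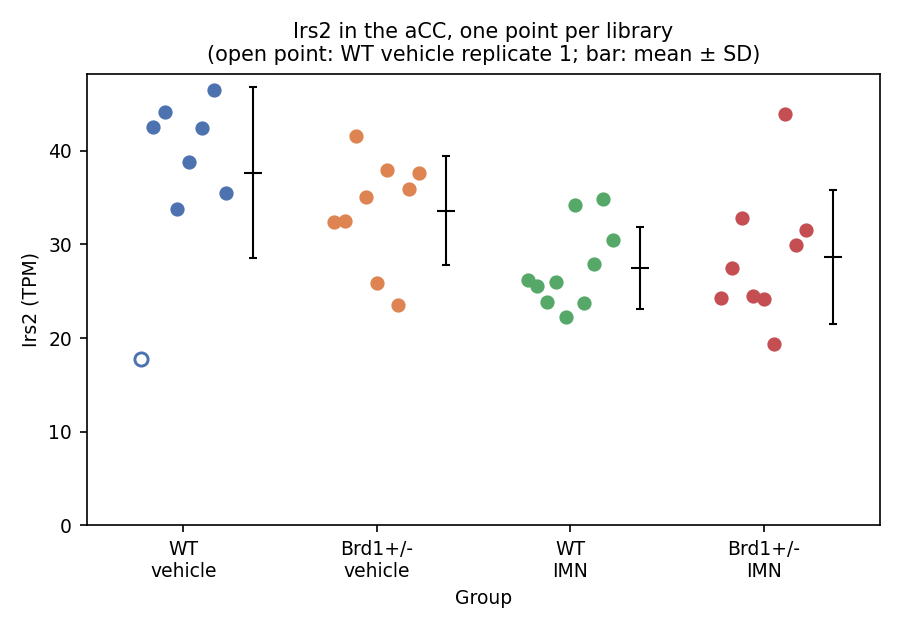
Irs2 in TPM (y axis, from 0) for each library in the 4 groups (x axis), with the mean and SD of each group beside its points. The open point is WT vehicle replicate 1 at 17.7 TPM, and the other 7 WT vehicle libraries sit at 33.8 TPM or above.

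In Brd1+/- mice, Irs2 ran from 23.5 to 41.6 TPM with vehicle, with a median of 35.1 TPM (mean 33.6 ± 5.82, SD, n = 9). With IMN it ran from 19.3 to 43.9 TPM with a median of 27.5 TPM (mean 28.7 ± 7.13, SD, n = 9). Of the 9 Brd1+/- IMN libraries, 8 were below the vehicle mean and 1 was above the highest vehicle library, so these groups overlapped widely.

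On the log2(TPM + 0.5) scale, the difference of Irs2 with IMN was -0.41 (SE 0.148) in WT mice, a level 24.9% lower. Without WT vehicle replicate 1 it was -0.56 (SE 0.0956). That library had the lowest Irs2 of all 36. Leaving it out by itself widens each Irs2 difference that uses it and narrows the SE. In Brd1+/- mice the difference was -0.24 (SE 0.134), a level 15.4% lower, and -0.22 (SE 0.14) without Brd1+/- vehicle replicate 6. Over both genotypes it was -0.33 (SE 0.102), and -0.39 (SE 0.0882) without WT vehicle replicate 1. The genotype by IMN interaction, the effect in Brd1+/- minus that in WT mice, was 0.17 (SE 0.206), and 0.32 (SE 0.171) without replicate 1. Whether the effect of IMN differs between the genotypes was not tested. Between genotypes, the difference of Irs2 (Brd1+/- minus WT) was -0.13 (SE 0.161) with vehicle, -0.28 (SE 0.11) without replicate 1, and 0.04 (SE 0.122) with IMN.

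The immediate-early score was also lower with IMN, at 5.44 ± 0.27 (SD, n = 10) against 5.96 ± 0.46 (SD, n = 8) in WT mice and 5.38 ± 0.38 (SD, n = 9) against 5.90 ± 0.24 (SD, n = 9) in Brd1+/- mice. Without replicate 1 the WT vehicle score was 6.10 ± 0.20 (SD, n = 7). With that score as a covariate, the difference of Irs2 with IMN was 0.03 (SE 0.0717) in WT mice, 0.11 (SE 0.13) in Brd1+/- mice and 0.08 (SE 0.0746) over both genotypes. With the oligodendrocyte score as a covariate, an alternative chosen after seeing the data, it was -0.31 (SE 0.126), -0.21 (SE 0.117) and -0.26 (SE 0.086) in the same order. The part of either score in the Irs2 difference was not tested.

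Irs1, the paralog of Irs2, had a lower level and differences well within their SE. Its level ran from 1.28 to 5.47 TPM over all 36 libraries, and the group means lay between 3.35 and 3.54 TPM. The difference with IMN was -0.01 (SE 0.206) in WT and -0.03 (SE 0.205) in Brd1+/- mice, and between genotypes it was 0.04 (SE 0.202) with vehicle and 0.02 (SE 0.207) with IMN. Within-group SDs of log2 Irs1 were 0.35 to 0.52, wider than those of Insr and Igf1r at 0.17 to 0.24.

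The receptors differed little between groups. Insr, the insulin receptor (ENSMUSG00000005534), had group means of 11.4 ± 1.96 TPM (SD, n = 8) in WT vehicle, 12.01 ± 1.56 TPM (SD, n = 9) in Brd1+/- vehicle, 11.8 ± 1.80 TPM (SD, n = 10) in WT IMN and 13.5 ± 2.28 TPM (SD, n = 9) in Brd1+/- IMN libraries. Its differences were small and positive in all 4 comparisons of groups. They were 0.05 (SE 0.0982) and 0.15 (SE 0.0998) with IMN in WT and Brd1+/- mice, and 0.07 (SE 0.103) and 0.17 (SE 0.095) for genotype with vehicle and with IMN. Without WT vehicle replicate 1, the Insr difference was 0.11 with IMN in WT mice and 0.13 for genotype with vehicle. Comparisons that share a group are not independent, and every pair of groups overlapped. Igf1r, the receptor for both IGFs (ENSMUSG00000005533), lay between 11.3 and 22.1 TPM in all libraries. Its difference with IMN was -0.11 (SE 0.0914) in WT and 0.08 (SE 0.106) in Brd1+/- mice, and for genotype it was -0.15 (SE 0.104) with vehicle and 0.04 (SE 0.0942) with IMN.

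Of the ligands, Igf1 (ENSMUSG00000020053) was low, between 2.31 and 5.75 TPM in all libraries, with group means between 3.83 and 4.30 TPM. Its differences ran from -0.09 (SE 0.135) for IMN in Brd1+/- mice to -0.04 (SE 0.163) for genotype with vehicle. Leaving out 1 library at a time, the Igf1 difference with IMN in WT mice ran from -0.18 to -0.02. Igf2 (ENSMUSG00000048583) varied most of the 9 genes, with its highest library 12.4 times its lowest. In WT vehicle libraries it ran from 9.28 to 34.9 TPM with a median of 24.6 TPM, and in Brd1+/- vehicle libraries from 9.03 to 54.6 TPM with a median of 18.3 TPM. With IMN it ran from 5.50 to 59.6 TPM with a median of 22.1 TPM in WT mice, and from 6.63 to 68.4 TPM with a median of 32.0 TPM in Brd1+/- mice. All 4 groups overlapped over most of their range, and 7 of the 9 Brd1+/- IMN libraries were above the mean of each group they were compared with.

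The difference of Igf2 was 0.59 (SE 0.389) for IMN in Brd1+/- mice and 0.76 (SE 0.456) for genotype with IMN, against 0.01 (SE 0.441) for IMN in WT mice and 0.18 (SE 0.355) for genotype with vehicle. The values that use Brd1+/- vehicle replicate 6, the highest Igf2 library of its group at 54.6 TPM, moved without it. They were then 0.02 (SE 0.338) for genotype with vehicle and 0.75 (SE 0.381) for IMN in Brd1+/- mice, and the part of the choroid plexus and striatal RNA in that library was not tested. Leaving out 1 library at a time, the difference ran from 0.02 to 0.34 for genotype with vehicle (highest without Brd1+/- vehicle replicate 5), from 0.44 to 0.87 for IMN in Brd1+/- mice (without Brd1+/- vehicle replicate 5 and Brd1+/- IMN replicate 4) and from 0.57 to 1.04 for genotype with IMN (without WT IMN replicate 4 and Brd1+/- IMN replicate 4). The score of 12 leptomeningeal markers, collagens and transporters of the pial cells, was 2.29 ± 0.87 (SD, n = 9) in Brd1+/- IMN and 1.77 ± 0.89 (SD, n = 10) in WT IMN libraries. The summed level of those markers ran from 16.6 to 182.1 TPM and from 14.9 to 115.1 TPM in the same groups. With leptomeningeal and striatal scores as covariates, the genotype difference of Igf2 with IMN was 0.14 (SE 0.137) and the IMN difference in Brd1+/- mice was 0.44 (SE 0.143). In punched tissue, fewer cells of a type and less RNA per cell cannot be told apart.

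The binding proteins were the most abundant of the set. Igfbp5 had group means of 55.9 to 65.3 TPM, Igfbp2 of 37.8 to 42.1 TPM and Igfbp4 of 29.8 to 37.3 TPM. Igfbp2 differed by -0.22 (SE 0.227) with IMN in WT mice and by -0.12 (SE 0.241) in Brd1+/- mice. Igfbp5 differed by -0.08 (SE 0.153) and 0.11 (SE 0.17) in the same order, and by 0.21 (SE 0.181) for genotype with IMN. For Igfbp4 the genotype difference was -0.21 (SE 0.207) with vehicle and -0.21 (SE 0.215) with IMN. The first of these leaned on WT vehicle replicate 1, which at 72.9 TPM was the highest Igfbp4 value of all libraries, and it was -0.05 (SE 0.166) without it. Leaving out that library also moved the differences with IMN in WT mice. That of Igfbp4 went from 0.06 to 0.22, and that of Igfbp2 from -0.22 to -0.32.

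**Figure D2:**
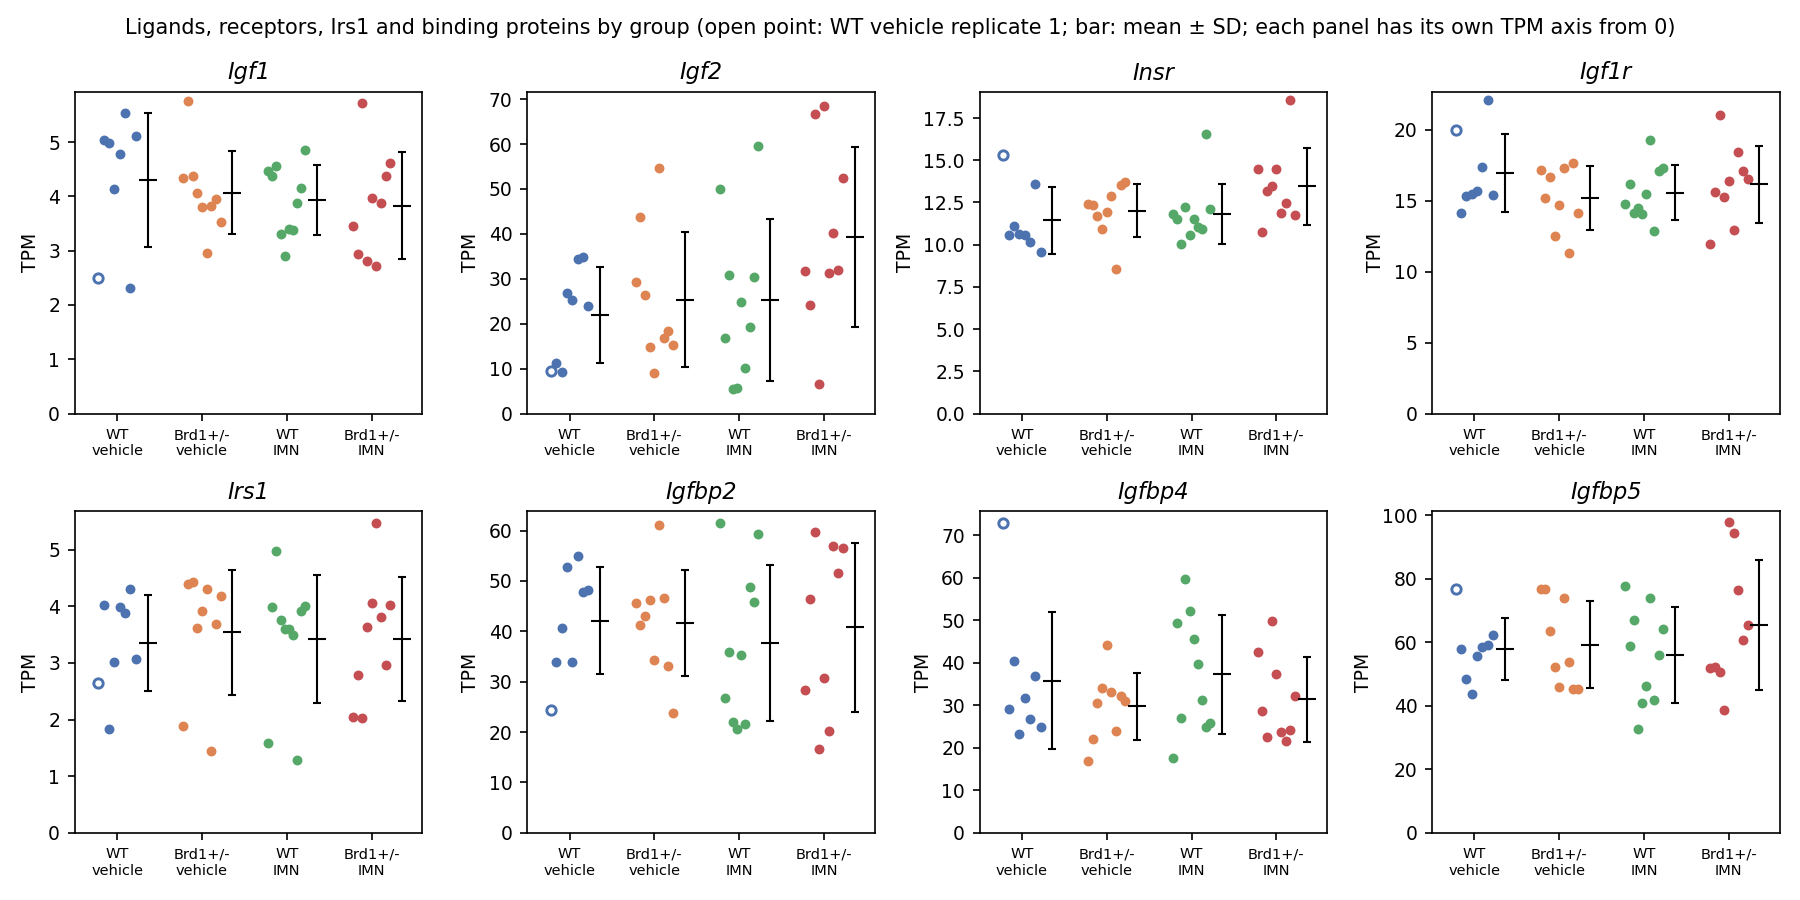
Level in TPM (y axis, each panel from 0 on its own scale) of the other 8 genes for each library in the 4 groups (x axis), with mean and SD. The groups overlap in every panel, Igf2 spreads from 5.50 to 68.4 TPM, and the open point, WT vehicle replicate 1, is the highest Igfbp4 value at 72.9 TPM.

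**Figure D3:**
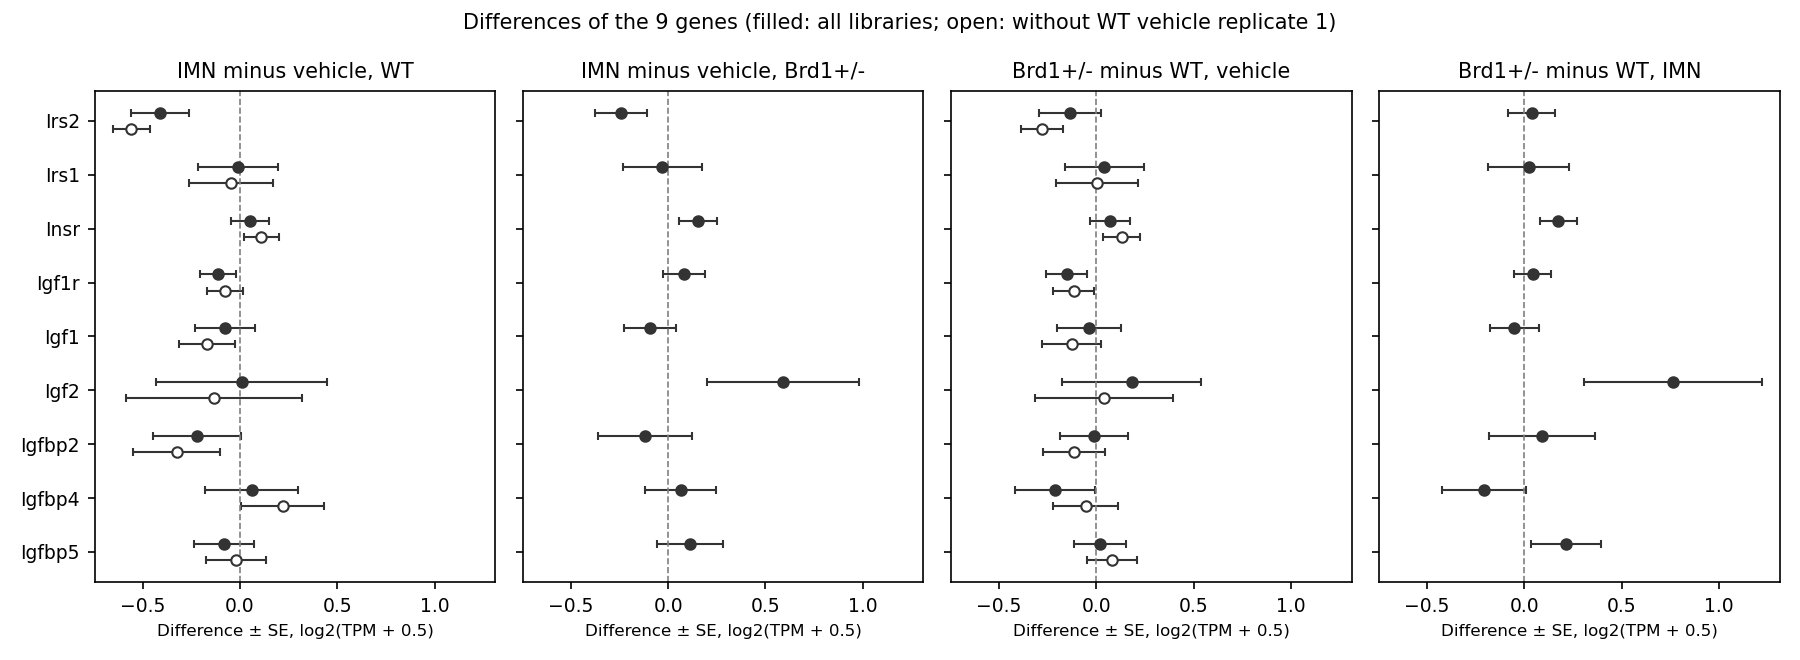
Difference ± SE on the log2(TPM + 0.5) scale (x axis) for each of the 9 genes (y axis) in 4 comparisons of groups, with all libraries (filled) and without WT vehicle replicate 1 (open). Irs2 with IMN in WT mice moves from -0.41 to -0.56 when that library is left out, and Igf2 has the widest error bars.

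The order of mean levels over 36 libraries was Igfbp5 (59.5 TPM), Igfbp2 (40.5 TPM), Igfbp4 (33.6 TPM), Irs2 (31.6 TPM), Igf2 (28.1 TPM), Igf1r (15.9 TPM), Insr (12.2 TPM), Igf1 (4.02 TPM) and Irs1 (3.43 TPM). Several neighbours in that order were not separated: Igfbp4 was above Irs2 in 16 of 36 libraries, Irs2 above Igf2 in 25, and Igf1 above Irs1 in 22. Insr and Igf1 were the sole neighbours whose ranges did not touch.

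The rest of the pathway was taken from lists of 77 genes, of which 70 passed the filter. Ins1, Ins2, Insrr, Igfbp1, Igfbpl1, Igfals and Pappa did not, and both insulin genes were listed at 0 in every library. By limma with Benjamini-Hochberg adjustment over all genes, no pathway gene passed an adjusted p of 0.05 in any of the 6 comparisons, and none did without WT vehicle replicate 1. At an unadjusted p under 0.05, 6 of the 70 passed for IMN in WT mice against 6.6% of all genes tested, 3 for IMN in Brd1+/- mice against 5.52%, and 10 for IMN over both genotypes against 9.38%. For genotype 1 passed with vehicle against 3.75% and 1 with IMN against 3.23%, and for the interaction 2 passed against 3.2%. Without WT vehicle replicate 1, 10 of the 70 passed for IMN in WT mice against 10.6%, and 6 of the 70 over both genotypes against 11.3%. For genotype with vehicle 7 of the 70 passed against 6.61%, and for the interaction 2 of the 70 against 4.1%. The first number is a count of pathway genes and the second a percentage of all genes tested.

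Over all genes tested, 0% were called at the adjusted level for IMN in WT mice, 0.00782% for IMN in Brd1+/- mice, 0.274% for IMN over both genotypes, and 0% for genotype with vehicle, genotype with IMN and the interaction. Without replicate 1 the shares were 0.125% for IMN in WT mice, 0.665% over both genotypes, and 0% for genotype with vehicle and the interaction. At an unadjusted p under 0.01, the nominal level of the study, 0 of the 70 pathway genes passed for IMN in WT mice against 1.58% of all genes, and 2 without replicate 1 against 3.09%. In Brd1+/- mice 1 pathway gene passed with IMN against 1.22%, and over both genotypes 2 passed against 3.11%, or 3 against 4.03% without replicate 1. For genotype, 0 passed with vehicle against 0.7% of all genes, 2 with vehicle without replicate 1 against 1.5%, and 0 with IMN against 0.614%. For the interaction 1 passed against 0.547%, and 1 without replicate 1 against 0.677%.

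Some of the pathway genes with the smallest p are named, as values only. Mapk3, the kinase ERK1, differed by -0.54 (SE 0.194, limma adjusted p = 0.637) with IMN in WT mice and by -0.37 (SE 0.134, adjusted p = 0.312) over both genotypes. Rheb, the GTPase that activates mTOR, differed by -0.12 (SE 0.037, adjusted p = 0.204) over both genotypes. Grb14, an adaptor that inhibits the insulin receptor, differed by 0.28 (SE 0.0863, adjusted p = 0.689) with IMN in Brd1+/- mice. Socs1, a suppressor of cytokine signalling, differed by -0.37 (SE 0.155, adjusted p = 0.706), and Rps6kb2, a ribosomal S6 kinase, by -0.49 (SE 0.211, adjusted p = 0.711) with IMN in WT mice. Socs2, a feedback inhibitor of growth hormone and IGF signalling, had the smallest p of these genes for the interaction, at 0.51 (SE 0.152, adjusted p = 1). It differed by -0.28 (SE 0.105) for genotype with vehicle and by 0.23 (SE 0.107) with IMN. Without WT vehicle replicate 1, the genes under 0.01 for genotype with vehicle were Socs2, at -0.32 (SE 0.107, adjusted p = 0.644), and Mapk3, at -0.51 (SE 0.173, adjusted p = 0.646). Stc1, which inhibits the protease that frees IGFs, differed by 0.34 (SE 0.166) for genotype with vehicle.

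FOXO targets, which lie downstream of the pathway, and CREB-responsive and glucocorticoid-responsive genes, which were listed apart from it, gave a mixed picture. Of 14 FOXO target genes, 8 were higher and 6 lower with IMN over both genotypes, with a median log2 difference of 0.00656 against -0.00231 over all genes. Of these 14, 1 passed the adjusted test, against 0.274% of all genes tested. That gene, Trib1, a pseudokinase, fell by 0.45 on the log2 scale (SE 0.0991, limma adjusted p = 0.0382), and its adjusted p was 0.0273 without WT vehicle replicate 1. It missed 0.05 in 17 of 36 fits that left out 1 library, with up to 0.074 without WT vehicle replicate 3, and ran from 0.0204 to 0.666 over 12 other alternatives. Of 12 CREB-responsive genes, 11 were lower with a median of -0.28, where 51.0% of all genes tested were lower. Only Rgs2, a regulator of G protein signalling, passed, with -0.32 (SE 0.0703, limma adjusted p = 0.0326). Rgs2 missed 0.05 in 11 of 36 such fits, with up to 0.0603 without WT vehicle replicate 3, and ran from 0.00981 to 0.496 over the alternatives. Without WT vehicle replicate 1, 3 of the 12 passed over both genotypes, against 0.665% of all genes tested. They were Pcsk1, a prohormone convertase (limma adjusted p = 0.0045), Rgs2 (adjusted p = 0.0162) and Bdnf, a neurotrophin (adjusted p = 0.0178). That library had a CREB-responsive score of 4.21 against 4.33 to 4.90 in the rest of its group, so leaving it out by itself widens the difference. Of 10 glucocorticoid-responsive genes, 8 were higher and 2 lower with a median of 0.17. Sult1a1, a phenol sulfotransferase, passed with 0.65 (SE 0.101, limma adjusted p = 0.00121), against 0.274% of all genes tested. Without WT vehicle replicate 1, 2 passed, against 0.665% of all genes tested: Sult1a1 and Cdkn1a, a cell cycle inhibitor, the latter at -0.50 (SE 0.117, limma adjusted p = 0.0314).

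All 14 immediate-early genes, transcribed within minutes of neuronal activity, were lower with IMN over both genotypes, with a median of -0.52. Of these, 3 passed the adjusted test, against 0.274% of all genes tested. Npas4, a transcription factor induced by calcium entry, fell by 0.94 (SE 0.163, limma adjusted p = 0.00318), Arc, a synaptic protein, by 0.67 (SE 0.131, adjusted p = 0.0108) and Egr1, a zinc finger factor, by 0.66 (SE 0.126, adjusted p = 0.00939). Without WT vehicle replicate 1 the number past the test was 10 of 14, against 0.665% of all genes, and without Brd1+/- vehicle replicate 6 it was 4. WT vehicle replicate 1 had the lowest immediate-early score of its group, so leaving it out by itself widens the difference with IMN. The list was also chosen with earlier results of these data known. For IMN in WT mice, where no gene passed with all libraries, Npas4 (limma adjusted p = 0.0411), Fosb (0.0462), Egr4 (0.0493), Rgs2 (0.0462), Bdnf (0.0493) and Cdkn1a (0.0493) passed without replicate 1.

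Across libraries, levels centred on their group means were compared with 16 scores: 12 of cell type markers, 3 of responsive gene lists and the mean of all tested genes. Of the 144 pairs of gene and score, 43 passed an adjusted permutation p of 0.05 by Pearson's r, 30 of them positive and 13 negative. A permutation p of 1e-05 before adjustment was the smallest that 100000 draws allowed, and TPM values share a library total, so levels are not free of each other.

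Irs2 followed the immediate-early score most closely, with Pearson's r of 0.85 (Spearman's rho 0.77, adjusted permutation p = 0.00012 and 0.000131, n = 36). Leaving out the 2 libraries farthest from the median score, WT vehicle replicate 1 and Brd1+/- IMN replicate 6, r was 0.74, and without replicate 1 alone it was 0.77. Within groups r lay between 0.56 in Brd1+/- vehicle and 0.97 in WT vehicle libraries. The 0.97 includes replicate 1, the lowest WT vehicle library in both Irs2 and the score, and was not computed without it. With the CREB-responsive score r was 0.75 (rho 0.76, adjusted permutation p = 0.00012 and 0.000131), between 0.69 and 0.84 within groups. Irs2 also went with the upper-layer score at r = 0.60 (rho 0.44, adjusted permutation p = 0.00494 and 0.0407), which was 0.35 without the 2 farthest libraries and -0.34 within Brd1+/- vehicle libraries. With the oligodendrocyte score r was -0.58 (rho -0.49, adjusted permutation p = 0.00315 and 0.015), and -0.47 without the 2 farthest libraries.

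**Figure D4:**
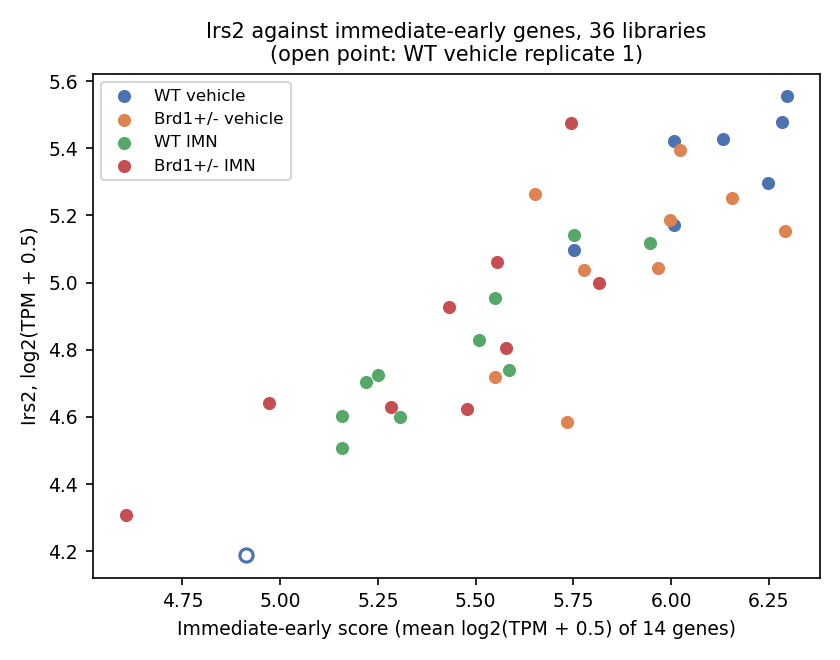
Irs2 on the log2(TPM + 0.5) scale (y axis) against the mean of 14 immediate-early genes on that scale (x axis), one point per library, coloured by group. Libraries with a higher immediate-early score have more Irs2 (r = 0.85 after centring on group means), and the open point, WT vehicle replicate 1, lies at the low end of both.

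Igf2 followed the leptomeningeal score with r = 0.90 (rho 0.90, adjusted permutation p = 0.00012 and 0.000131, n = 36), 0.88 without the 2 farthest libraries and between 0.67 and 0.97 within groups. It also followed the mural score (r = 0.84) and the astrocyte score (r = 0.81). Igfbp2 followed the leptomeningeal score with r = 0.74 (rho 0.69, adjusted permutation p = 0.00012 and 0.000222), 0.66 without the 2 farthest libraries, and Igfbp5 followed the astrocyte score with r = 0.62 (rho 0.56, adjusted permutation p = 0.00155 and 0.00565), though with r = -0.30 within WT vehicle libraries. Igfbp4 went the other way. Its r was -0.83 with the astrocyte score (rho -0.84, adjusted permutation p = 0.00012 and 0.000131), between -0.88 and -0.75 within groups, and 0.73 with the deep-layer score (rho 0.74), between 0.58 and 0.81 within groups.

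Igf1 followed the upper-layer score (r = 0.65) and ran against the deep-layer score (r = -0.65) and the oligodendrocyte score (r = -0.62). It also passed with the astrocyte (r = 0.56), leptomeningeal (r = 0.51), mural (r = 0.47) and endothelial (r = 0.46) scores. Igf1r and Insr went with the mean of all tested genes, at r = 0.63 and 0.50, though Insr had r = -0.17 within Brd1+/- IMN libraries. By Pearson's r, Insr passed with no marker score and Igf1r with the interneuron score alone (r = -0.45). By Spearman's rho, Insr passed with the deep-layer score (0.42) and Igf1r with the striatal score (0.44). Irs1 passed with none of the 16 scores by either Pearson's r or Spearman's rho. Choroid plexus markers were near the floor in 35 libraries, with 7 of 11 passing the filter and 0 of them at a median of 1 TPM, and were high in Brd1+/- vehicle replicate 6 alone. With that score no gene of the set passed by Pearson's r. By Spearman's rho Igf2 did, at 0.35 (adjusted permutation p = 0.0422, n = 36), with r = 0.28 (adjusted permutation p = 0.0935).

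**Figure D5:**
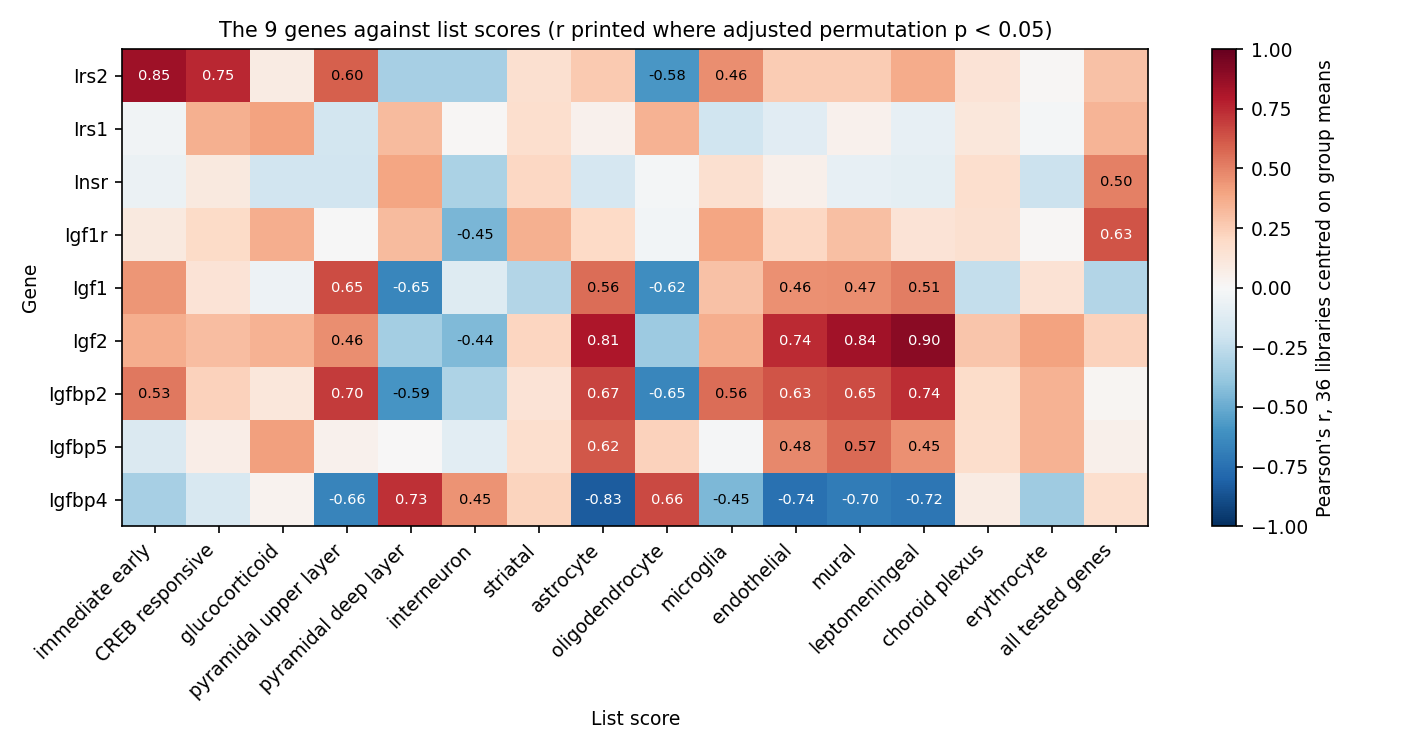
Pearson's r (colour, from -1 to 1) of each of the 9 genes (y axis) with each of the 16 list scores (x axis) over 36 libraries centred on group means, printed where the adjusted permutation p is under 0.05. Irs2 has its highest value with the immediate-early score (0.85) and Igf2 with the leptomeningeal score (0.90), and Igfbp4 has the sign opposite to Igf2 and Igfbp2 for the vascular, astrocyte and layer scores.

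Of the 17696 tested genes that averaged 1 TPM or more, those most like Irs2 in their pattern over the 36 group-centred libraries were, by Pearson's r, Per2 (0.92), a clock gene, Dbn1 (0.90), an actin-binding protein of dendritic spines, Fosb (0.86), Mpp2 (0.86), Dyrk3 (0.86), Mamld1 (0.86), Phf13 (0.86), Egr4 (0.86), Erf (0.85) and 2510009E07Rik (0.85). Without WT vehicle replicate 1, 5 of these 10 genes were still among the 10 highest, Per2 (0.87) and Dbn1 (0.85) first. The lowest were Fundc2 (-0.81), Adamtsl4 (-0.79) and Tmem229a (-0.79). The 14 immediate-early genes were spread along this ranking. Fosb and Egr4 were among the 10 highest, but ranked 14 and 15 without WT vehicle replicate 1. Dusp1 (-0.04) and Ier2 (0.09), chosen after their values were seen, showed no likeness, and Arc, which fell with IMN, had r = 0.23.

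The genes most like Igf2 were Bmp6 (0.92), a secreted bone morphogenetic protein, Colec12 (0.91), a scavenger receptor, Prelp (0.91), a matrix proteoglycan, Serping1 (0.91), the complement C1 inhibitor, and Zfp36l1 (0.90), an RNA-binding protein. Without Brd1+/- vehicle replicate 6, 3 of these 5 stayed among the 5 highest. Within the set, Igf2 and Igfbp2 went together (r = 0.74, rho 0.68), Igfbp4 ran against Igfbp2 (r = -0.66, rho -0.66) and Igf2 (r = -0.65, rho -0.61), and Irs2 had its highest r with Igfbp2 (0.53, rho 0.50), given here as descriptions. Insr and Igf1r went together at r = 0.48 (rho 0.50), and Irs1 and Irs2 at 0.15 (rho 0.19).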

How the data were processed

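RNA from punches of the right aCC of 36 mice was measured by RNA-seq. Per the labels and the study's methods, the authors trimmed single-end reads, aligned them to GRCm38 with HISAT2 2.1.0 and quantified genes with StringTie 1.3.4. The deposited values are TPM, 1 per gene and library. TPM hold no counts, so depth, counting error and detection limits are unknown. Strand use is not given in the sources used here, so genes overlapped by another gene on the opposite strand (Irs1, Irs2, Insr, Igf1 and Igf2, the last also by Gm49394 on its own strand) are uncertain. No column was left without a sample (0 columns), and the labels give no batch.

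Genes that reached 0.1 TPM in 8 or more libraries were fitted as log2(TPM + 0.5) with limma 3.58.1 (R 4.3.3, intensity trend). Tests were two-sided, and p-values were adjusted by Benjamini-Hochberg over 25572 genes. Fold changes on this scale understate those of low genes. Pair comparisons used their own libraries. IMN over both genotypes (genotype as covariate) and the interaction used all 36. Correlations used 100000 permutations in Python 3.11.15 with scipy 1.17.1. Fits and correlations were tested on simulated data. Each library was counted as a separate mouse.

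The 9 genes and all lists were chosen with earlier results of these data known. Text names the 9 genes and Brd1, and list genes past an adjusted p of 0.05 (up to 5 per list). Where no pathway gene passed, some but not all of the 3 with the smallest p in each comparison are named. The 10 genes most and 3 least like Irs2, and the 5 most like Igf2, are also named. Alternatives were pseudocounts, filters, scalings, array weights, score covariates, a replicate block and leaving libraries out.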

Additional observations from a re-analysis of the deposited data

Results flagged for a closer look

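A library was flagged where its gap to the nearest library of its group exceeded Dixon's limit for that group size, on the log2 scale. Of 36 combinations of gene and group, 4 were flagged, and chance flags about 1 in 20. Irs2 in WT vehicle replicate 1 was 17.7 TPM, with the nearest library of the group at 33.8 TPM. Insr in Brd1+/- vehicle replicate 7 was 8.55 TPM, with the nearest at 10.9 TPM. Insr in WT IMN replicate 9 was 16.5 TPM, with the nearest at 12.2 TPM. Igf2 in Brd1+/- IMN replicate 4 was 6.63 TPM, with the nearest at 24.2 TPM.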

How the results depend on the processing

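The count of pathway genes past an adjusted p of 0.05 was 0 in all 6 comparisons under every alternative run, leaving out each library in turn included. The number of pairs of gene and score past 0.05 lay between 41 and 50 over 9 alternatives, against 43. Of 756 differences of the 9 genes refitted under an alternative, 753 moved by less than the within-group SD. The 3 that moved further were those of Irs2 with IMN with the immediate-early score as a covariate, and the part of that score was not tested. The within-group SD is a wide limit, at 0.96 for Igf2, so staying inside it does not show a stable difference. Inside it, the Igf2 genotype difference with IMN went from 0.76 to 0.14 with leptomeningeal and striatal scores as covariates. The Igf2 difference with IMN in WT mice ran from -0.27 to 0.60 over the alternatives. Leaving out 1 library at a time, the Irs2 difference with IMN ran from -0.56 to -0.36 in WT mice, from -0.32 to -0.18 in Brd1+/- mice and from -0.39 to -0.30 over both genotypes. The list of genes most like Irs2 shared 5 of 10 genes without WT vehicle replicate 1, and that for Igf2 shared 3 of 5 without Brd1+/- vehicle replicate 6. Replicate numbers in the labels did not pair the libraries: same-numbered libraries had correlations of deviations between -0.26 and 0.26, and with the replicate block the count of pathway genes stayed at 0 and the Irs2 difference with IMN was -0.48 (SE 0.152) in WT mice and -0.24 (SE 0.146) in Brd1+/- mice. TPM keep no depth, so the precision of low genes such as Irs1 and Igf1 cannot be set apart from the spread between mice.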
